A study of Arabidopsis thaliana with 18 samples.

Results

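In wild-type (WT) Arabidopsis seedlings, 95 probe sets read at least 2-fold higher during growth without inorganic phosphate (Pi) than in complete medium, at least 2-fold lower again after 4 h of Pi resupply, and at that time at least 2-fold higher in the spx1,spx2 double mutant than in WT. The members were picked from mean log2 signals: WT without Pi minus WT complete, WT without Pi minus WT resupplied, and resupplied mutant minus resupplied WT each had to be 1 or more. Of all probe sets 8.86% met the first condition, 3.63% the second and 0.853% the third. These 3 conditions held for 99 of 22746 non-control probe sets, and 4 genes (AT5G20790, AT2G04460, AT5G17340 and OCT1) were left out. Of the 95 members, 38 probe sets carry a single gene name and stand for 37 genes, 1 is assigned to several genes and 56 are not named here. The 3 differences that chose the members are given below as descriptions without a test.

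Whole 7-day-old seedlings of accession Col-0 were profiled on 18 Affymetrix arrays, with 3 biological replicates in each of 6 groups. The groups were spx1,spx2 and WT seedlings moved to complete medium for 4 h after growth on medium lacking Pi (resupplied), spx1,spx2 and WT seedlings kept on medium lacking Pi, and spx1,spx2 and WT seedlings kept on complete medium. The labels give neither the spx1 and spx2 alleles nor a group moved to fresh medium lacking Pi, so Pi itself and the move cannot be told apart. No probe set is named for SPX1 or SPX2 here, so their loss was not checked on the arrays.

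Plants short of Pi switch on a large set of genes through the MYB factor PHR1, which binds a short element in their promoters. SPX1 and SPX2 are nuclear proteins that bind PHR1 when Pi, sensed through inositol pyrophosphates, is ample, and so hold it off its targets. The targets known in seedlings include phosphate transporters, secreted phosphatases and enzymes that replace phospholipids by lipids without phosphate.

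After resupply the members stayed nearer their starved level in the mutant and lay lower in WT. The median signal of the 95 members was 8.42, 8.56 and 8.57 on the 3 arrays of the resupplied mutant, and 6.96, 6.85 and 6.79 on those of resupplied WT. Without Pi it was 9.46, 9.51 and 9.51 in the mutant and 9.60, 9.57 and 9.61 in WT. In complete medium it was 6.56, 6.43 and 6.52 in the mutant and 5.93, 6.03 and 5.90 in WT. The genotypes lay furthest apart after resupply, where the rule set them apart, and closest without Pi. As a share of each genotype's own log2 rise on starvation, the members' median left after 4 h was 71.4% in the mutant (lower and upper quartile 55.4% and 85.1%) and 19.3% in WT (0.531% and 33.8%). The rule favours a high value for the mutant and a low one for WT in this pair.

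**Figure D1:**
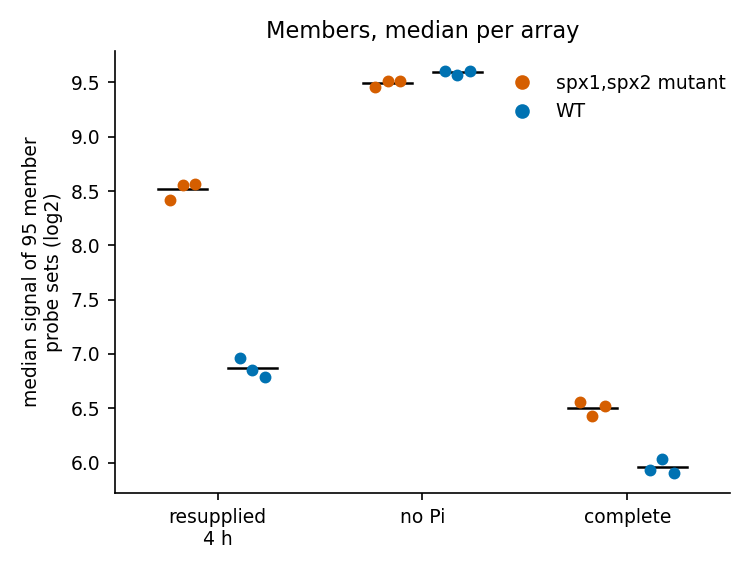
Median log2 signal of the 95 member probe sets on each array (points, 3 per group; black lines are group means) by medium, with the mutant left of WT. The group means are 8.51 in the mutant and 6.87 in WT after resupply, 9.49 and 9.59 without Pi, and 6.50 and 5.96 in complete medium.

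The mutant's own starvation response is the one comparison built from arrays the rule did not read, and every member rose in it. All 95 passed at an adjusted p of 0.05 (limma, Benjamini-Hochberg over 22746 probe sets), against 17.7% of all probe sets called up, and 0 were called down, against 26.3%. The rise was 2-fold or more for all 95, against 6.34% of all probe sets. The median rise was 2.58 on the log2 scale, with a range of 1.02 to 6.90, and the median over all probe sets was -0.03. Arrays of the 2 groups did not overlap for 94 members, against 20.3% of all probe sets with higher arrays. The exception was an unnamed probe set. It read 3.96, 7.32 and 6.96 in the mutant without Pi and 4.18, 3.99 and 4.01 in the mutant in complete medium. The value of 3.96 came from replicate 1, whose dap spike-in controls averaged 4.99, against 9.25 and 8.78 on replicates 2 and 3. The starvation rise in the mutant is not particular to the members. Another 441 probe sets met both WT conditions but not the genotype condition. Of these, 433 were also called up, with a median of 2.01. AT3G04350 had the highest adjusted p among the named members, 1.3e-05.

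The starvation rises of the members had a similar order in both genotypes. Across the 95 probe sets the mutant rise and the WT rise had a Pearson r of 0.86 and a Spearman rho of 0.86. The points share the 12 arrays behind the 2 differences, so this is a description across probe sets. The rise was smaller in the mutant than in WT for 75 of 95 members. The rule asks for a large WT rise, which favours that direction.

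**Figure D2:**
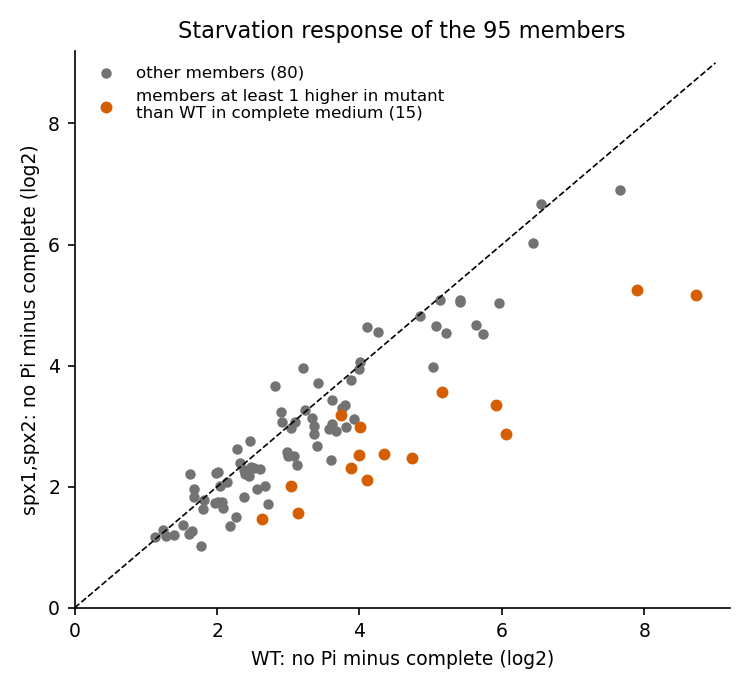
Starvation response of each member in the mutant (vertical, log2) against WT (horizontal, log2), with the line of equal response dashed. Below the line lie 75 of the 95 members. They include all 15 members that read at least 1 higher in the mutant than in WT in complete medium. That cut fixes their place, as no member read more than 0.88 higher in the mutant than in WT without Pi.

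The named members are described here by the known role of each gene, an arrangement made by hand that no list or test defines. AT1G13750, a gene of the purple acid phosphatase family, whose enzymes free Pi from organic compounds, read 9.60, 9.68 and 9.54 in the resupplied mutant and 7.94, 8.04 and 7.80 in resupplied WT. Without Pi it read 10.38, 10.58 and 10.69 in the mutant and 10.68, 10.77 and 10.78 in WT, and in complete medium 8.09, 7.93 and 8.32 in the mutant and 7.35, 7.14 and 6.94 in WT. The groups of the resupplied pair did not overlap, and the mutant was also above WT on every array in complete medium. Its starvation rise in the mutant was 2.44 ± 0.12 (SE of the fit, n = 3 arrays per group; limma adjusted p = 8.44e-12).

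VTC4, the L-galactose 1-phosphate phosphatase that makes a precursor of ascorbate and also acts on inositol phosphate, read 10.45, 10.32 and 10.36 in the resupplied mutant and 8.90, 8.85 and 8.68 in resupplied WT. Without Pi the genotypes overlapped, at 11.31, 11.29 and 11.44 in the mutant and 11.28, 11.41 and 11.26 in WT. They overlapped also in complete medium, at 9.70, 9.67 and 9.41 in the mutant and 9.29, 9.06 and 9.57 in WT. Resupplied WT was thus below never-starved WT on each array, while the resupplied mutant stayed above the never-starved mutant. VTC4 rose by 1.75 ± 0.12 on starvation in the mutant (limma adjusted p = 7.87e-10). AT4G23000, a calcineurin-like phosphoesterase gene, read 7.02, 6.89 and 6.89 in the resupplied mutant and 4.89, 4.58 and 4.42 in resupplied WT. Its means in complete medium were 4.83 in the mutant and 4.24 in WT. Resupplied WT lay within 0.39 of its unstarved level and the resupplied mutant 2.10 above its own. That WT level of AT4G23000 is under 4.40, the lowest lower quartile of any array, where RMA understates differences. AT1G67600, a gene related to acid phosphatases of the haloperoxidase type, kept 80.5% of its rise in the mutant and 34.6% in WT.

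Some named members are related to proteins that bind or move lipids or act at membranes. AT4G35750, a SEC14-like gene of phospholipid transfer, read 11.69, 11.81 and 11.74 in the resupplied mutant and 9.80, 9.83 and 9.64 in resupplied WT. In complete medium it read 10.72, 10.82 and 10.79 in the mutant and 10.39, 10.65 and 10.48 in WT. Resupplied WT therefore undershot the never-starved level by 0.75 on the log2 scale. The C2-domain gene AT1G23140 read 9.83, 9.87 and 9.94 in the resupplied mutant and 8.18, 7.73 and 7.80 in resupplied WT. It was also higher in the mutant in complete medium, by 1.40 ± 0.18. Another C2-domain gene, AT4G15740, dropped further in the mutant, with 48.6% of its rise left against 14.96% in WT. AT4G33550, a lipid transfer protein gene, kept 90.1% in the mutant and 57.9% in WT. The lipase-like gene AT4G00500 kept 62.7% in the mutant and 2.77% in WT, and the SNARE-associated Golgi protein gene AT4G17790 kept 42.5% in the mutant and -43.3% in WT, where a negative share means a level below complete medium. AT4G17790 rose by 1.97 ± 0.15 and AT4G33550 by 3.96 ± 0.13 on starvation in the mutant.

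The alpha/beta hydrolase genes AT1G08310, AT3G44510 and AT3G19970, rose by 2.96 or more on starvation in the mutant. AT1G08310 read 9.18, 8.70 and 8.84 in the resupplied mutant and 6.84, 6.39 and 6.42 in resupplied WT. Without Pi it read 10.82, 10.94 and 10.99 in the mutant and 10.97, 11.19 and 10.98 in WT, and in complete medium 5.57, 5.98 and 6.08 in the mutant and 5.01, 4.98 and 5.29 in WT. The mutant's mean dropped by 2.01 over the 4 h, so the gene was lower there too, by less than in WT (4.50 lower). AT3G44510 is read by 2 probe sets, which gave 2.19 and 2.11 for resupplied mutant minus resupplied WT and 2.96 ± 0.11 and 3.36 ± 0.12 for the mutant's starvation rise. AT3G19970 dropped by 1.78 in the mutant, and its genotype difference after resupply was 1.09.

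ICL and AT4G13800 had means after resupply close to those without Pi in the mutant. ICL, the isocitrate lyase of the glyoxylate cycle, read 7.85, 7.96 and 8.58 in the resupplied mutant and 6.75, 7.04 and 6.69 in resupplied WT. Without Pi it read 7.78, 8.60 and 7.65 in the mutant and 7.76, 9.17 and 8.16 in WT, a wide spread within each group. For ICL the resupplied mutant overlapped the mutant without Pi. OCT4, an organic cation transporter related to OCT1, read 7.83, 7.75 and 7.61 in the resupplied mutant and 6.30, 6.59 and 6.42 in resupplied WT. AT4G13800, a gene of the NIPA magnesium transporter family, differed by -0.10 between the resupplied mutant and the mutant without Pi. ICL rose by 2.23 ± 0.30, OCT4 by 1.82 ± 0.19 and AT4G13800 by 1.96 ± 0.17 on starvation in the mutant, each with a limma adjusted p of 5.59e-06 or less.

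SUFE2, an activator of sulfur mobilisation for iron-sulfur clusters, had the largest genotype difference in complete medium among the named members. It read 7.25, 7.46 and 7.25 there in the mutant and 4.90, 5.90 and 5.69 in WT. After resupply it read 8.80, 9.08 and 8.98 in the mutant and 7.94, 7.89 and 7.59 in WT, and without Pi 9.97, 9.73 and 9.90 in the mutant and 9.81, 9.89 and 9.83 in WT. SUFE2 was thus above WT in complete medium and after resupply, and overlapped it without Pi. AT5G09570, a twin-cysteine protein gene of the mitochondrial CHCH type, read 10.32, 10.55 and 10.40 in the resupplied mutant and 8.83, 8.67 and 8.54 in resupplied WT. Its complete-medium arrays overlapped, at 5.82, 5.44 and 5.60 in the mutant and 5.71, 4.88 and 5.37 in WT. It rose by 5.08 ± 0.16 on starvation in the mutant, the most among the named members (limma adjusted p = 1.55e-14), and kept 94.5% of that rise after resupply, against 62.1% in WT. The glycosyltransferase gene AT2G36970 was lower in the mutant without Pi (difference -0.82 ± 0.23), the largest gap among the named members.

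AT3G27150 and FHL, both of regulatory roles, differed in how far the mutant dropped. AT3G27150, an F-box and kelch-repeat gene known as the target of the Pi-responsive microRNA miR2111, read 8.32, 8.01 and 8.13 in the resupplied mutant and 7.18, 7.10 and 7.09 in resupplied WT. Without Pi it read 8.24, 8.25 and 8.39 in the mutant and 8.43, 8.52 and 8.23 in WT, and in complete medium 7.26, 7.17 and 6.95 in the mutant and 7.27, 7.08 and 7.43 in WT. It was the smallest starvation rise of a named member in the mutant (1.16 ± 0.12, limma adjusted p = 1.63e-07), and after 4 h WT overlapped its unstarved level while the mutant overlapped its starved one. The Raf-like kinase gene ATMRK1 and the AGC kinase gene AT4G13000 stayed likewise near the starved level in the mutant. ATMRK1 had 89.2% of its rise left in the mutant and -2.35% in WT, and AT4G13000 97.2% in the mutant and 10.4% in WT. FHL, which carries phytochrome A into the nucleus, read 6.77, 6.68 and 6.88 in the resupplied mutant and 5.62, 5.32 and 5.34 in resupplied WT. Without Pi it read 9.52, 9.40 and 9.64 in the mutant and 9.45, 9.62 and 9.53 in WT, and in complete medium 4.70, 4.53 and 5.43 in the mutant and 5.48, 5.60 and 5.20 in WT. FHL thus dropped by 2.75 in the mutant, the most of any named member, and still lay above resupplied WT on every array.

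The remaining named members were mostly genes with no role given here. AT3G43110 read 8.72, 8.92 and 9.03 in the resupplied mutant and 6.85, 6.34 and 6.17 in resupplied WT. Without Pi it read 10.14, 9.96 and 10.09 in the mutant and 10.33, 10.40 and 10.29 in WT, and in complete medium 5.15, 4.93 and 4.95 in the mutant and 4.73, 4.51 and 5.53 in WT. The genotypes overlapped in complete medium, and after resupply every mutant array lay above every WT array. AT3G43110 rose by 5.05 ± 0.20 on starvation in the mutant (limma adjusted p = 2.98e-13). AT1G72070, a gene of the DnaJ chaperone type, had 45.8% of its rise left in the mutant and 3.89% in WT. AT1G17830 had 69.4% left in the mutant and 45.5% in WT, and AT1G34640, which rose by 1.199 ± 0.11, had 73.4% left in the mutant and -30.2% in WT. AT3G50350 and AT1G70900 had 83.3% and 56.98% left in the mutant, against 14.9% and -13.95% in WT. The TIR-domain gene AT1G72890 and the 2-oxoglutarate oxygenase gene AT1G52800 were among the lowest of the named members in genotype difference after resupply, at 1.03 and 1.12.

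**Figure D3:**
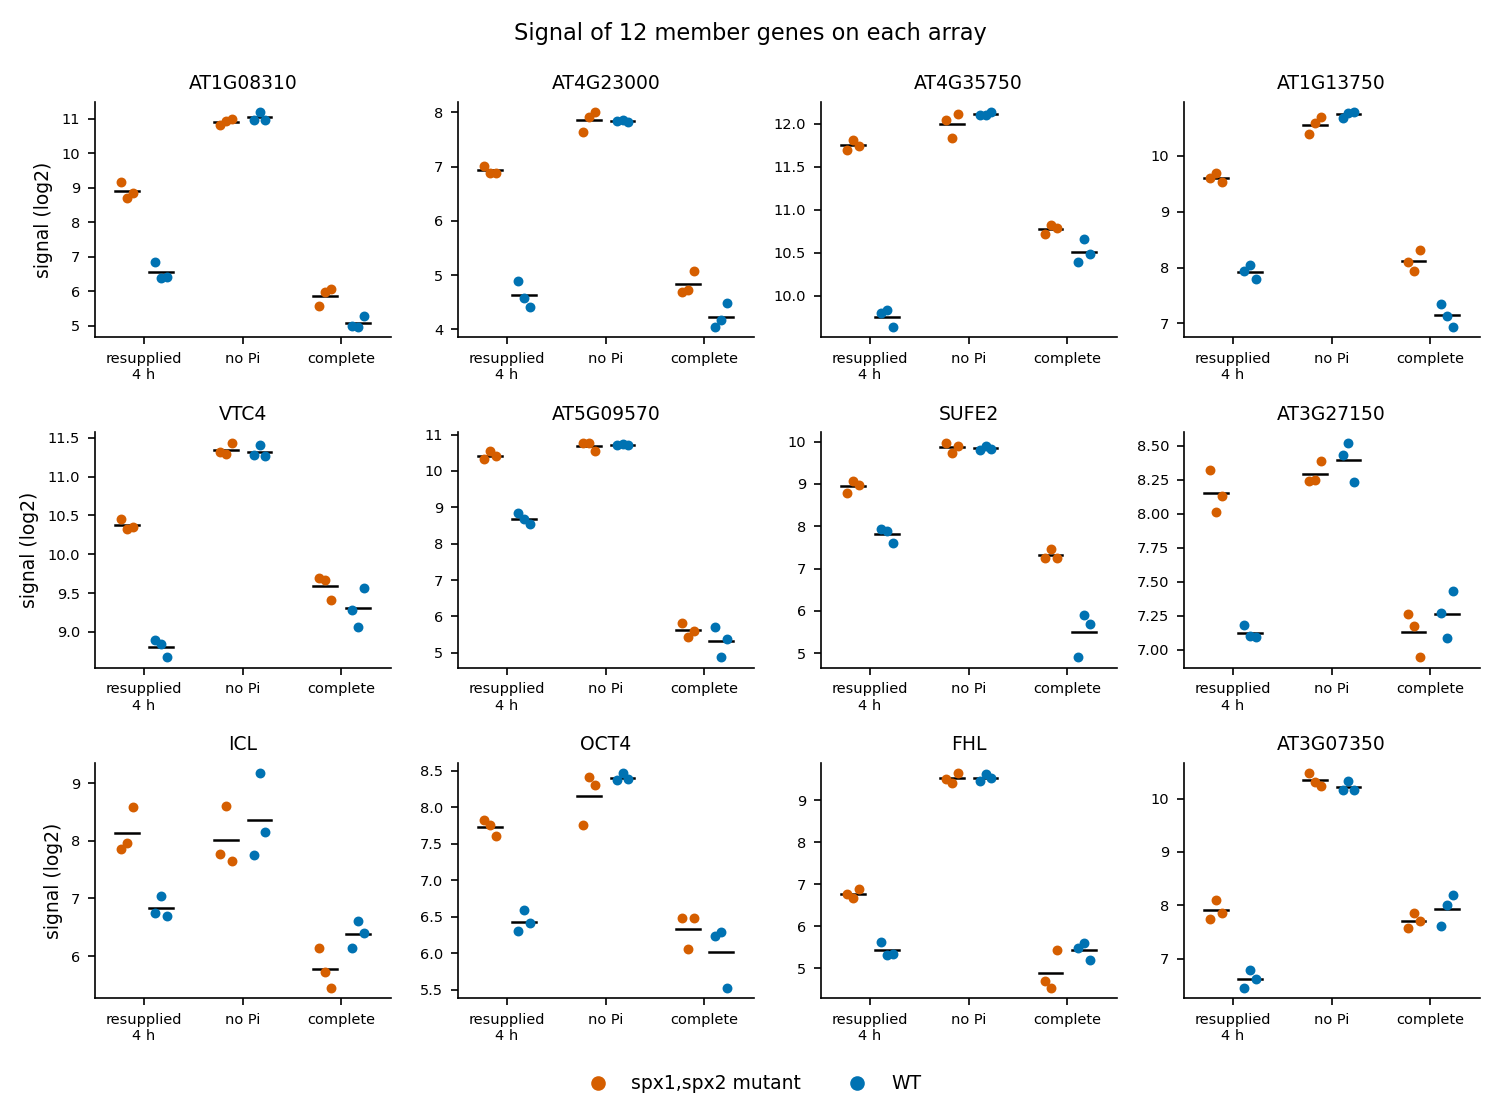
Log2 signal of 12 member genes on each of the 18 arrays (points; black lines are group means), by medium and with the mutant left of WT; each panel has its own vertical scale. In every panel the resupplied mutant lies above resupplied WT, as the rule requires of the means. The resupplied mutant lies near its level without Pi for AT5G09570, AT3G27150 and ICL and well below it for FHL and AT3G07350.

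Some members were lower after resupply in the mutant as well. After 4 h, 34 of the 95 members read at least 2-fold lower than in the mutant without Pi, against 5.24% of all probe sets, and 61 did not. The median change was -0.85 in the mutant and -2.51 in WT, and all 95 changed less in the mutant, which the rule largely fixes. Against never-starved mutant seedlings, 79 members still read at least 2-fold higher in the resupplied mutant, against 4.67% of all probe sets. Of the 441 probe sets that met both WT conditions but not the genotype condition, 58 (13.2%) did so. The genotype condition reads the resupplied mutant and favours high values there, so these counts are descriptions without a test. Whether the 95 need SPX1 and SPX2 for shutoff was not tested, and the single time of 4 h cannot tell a missing shutoff from a slow one. The 34 were lower in the double mutant too, and the other 61 had a median change of -0.43 there. Among the 34 the median share of the rise left was 50.9% in the mutant and 13.7% in WT. Among the other 61 it was 82.6% in the mutant and 21.7% in WT. The mean of the resupplied mutant was at or above that of the mutant without Pi for 8 members, of which AT1G21320 (0.41) and ICL (0.12) are named. FHL (-2.75), AT3G07350 (-2.44), AT5G47740 (-2.21) and AT1G08310 (-2.01) had the largest drops among named members. Over the members the changes in the mutant and in WT had a Pearson r of 0.74 across probe sets, a description of points that share 12 arrays.

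**Figure D4:**
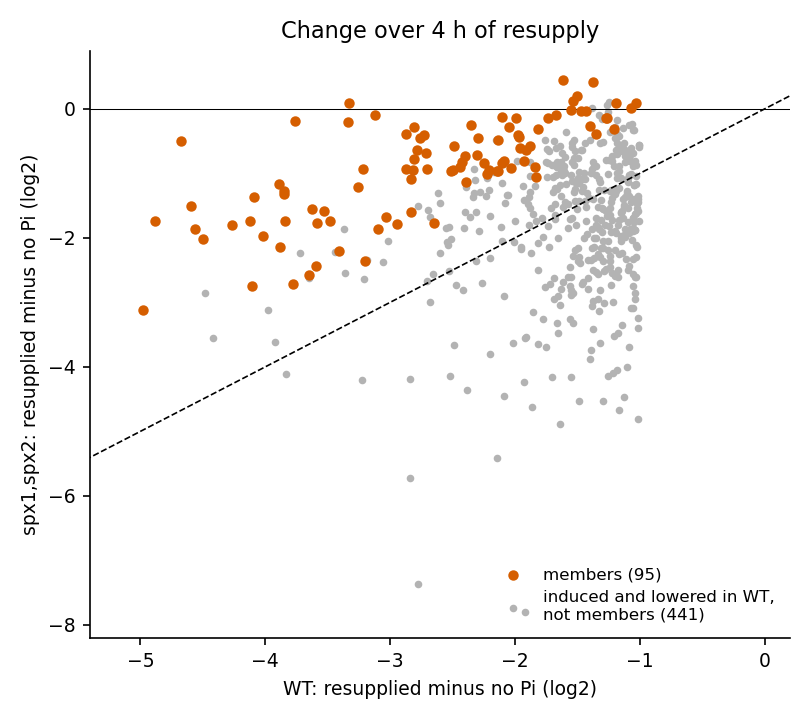
Change over 4 h of resupply in the mutant (vertical, log2) against WT (horizontal, log2) for the 95 members and for 441 probe sets that met both WT conditions but not the genotype condition; the dashed line marks equal change. All members lie above the line, from 0.45 to -3.13 in the mutant, as the rule largely fixes.

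WT did not stop at the unstarved level for all members. Resupplied WT was at least 2-fold above WT in complete medium for 35 members (36.8%), against 8.91% of all probe sets and 34.5% of the 441 that failed the genotype condition. It was at least 2-fold below it for 6 (6.32%), against 6.55% of all probe sets and 0.227% of the 441. The first share was thus close to that of the 441, and the second close to that of all probe sets. A further 36 lay within 0.5 on the log2 scale. The quartiles of resupplied WT minus WT in complete medium were 0.02 and 1.42 for the members and -0.40 and 0.29 over all probe sets. Of the named members, AT3G07350 (-1.32), AT5G19430 (-1.01), AT4G35750 (-0.75) and AT4G17790 (-0.72) were lowest against the unstarved level, and AT5G09570 (3.36) and SUFE2 (2.31) highest. AT3G07350 read 6.46, 6.78 and 6.62 in resupplied WT and 7.61, 8.01 and 8.20 in WT in complete medium. In the mutant the same gene read 7.75, 8.10 and 7.86 after resupply and 7.58, 7.85 and 7.71 in complete medium. The mutant groups of this gene overlapped, with a difference of 0.19 between their means, and all resupplied WT arrays lay below those of WT in complete medium.

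**Figure D5:**
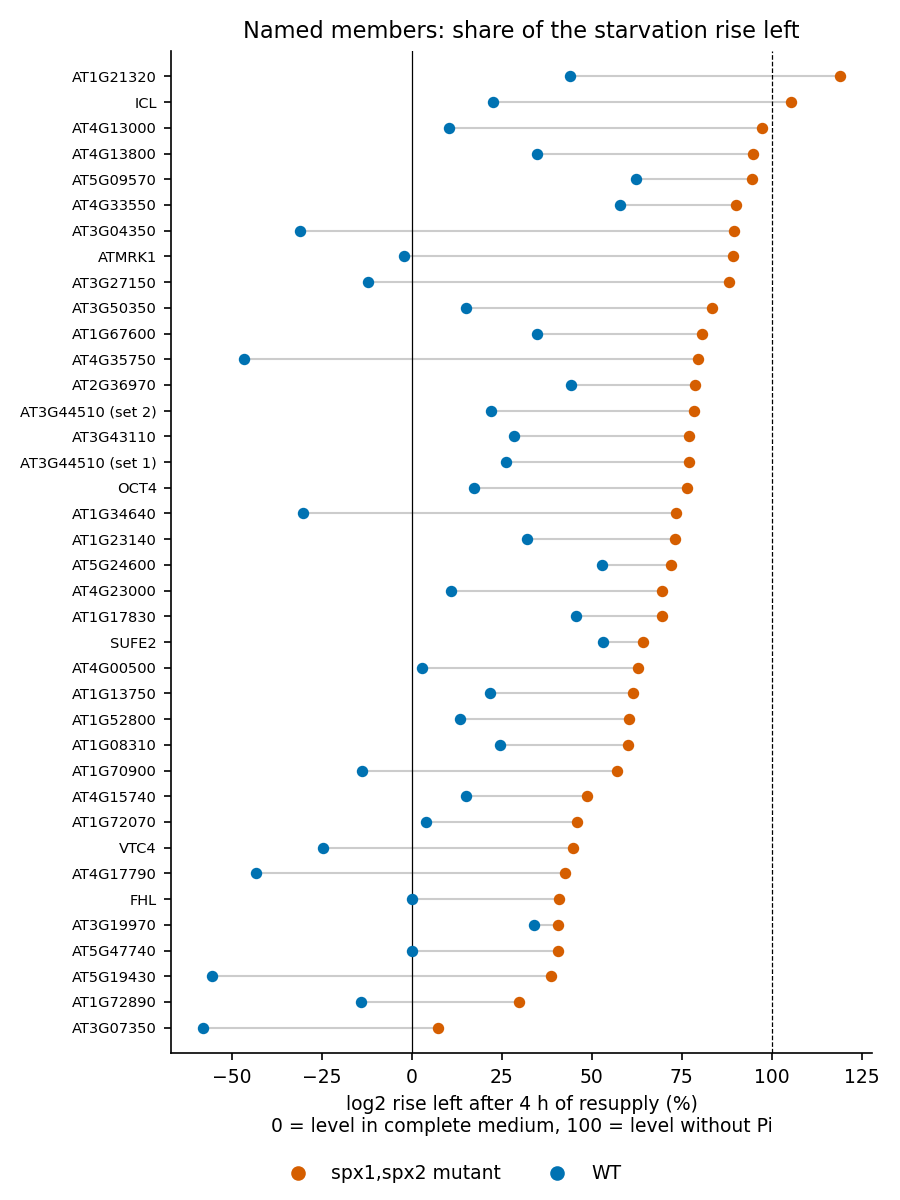
Share of the log2 starvation rise left after 4 h of resupply for the 38 named member probe sets, in the mutant (orange) and WT (blue), ordered by the mutant; the 2 probe sets of AT3G44510 are marked set 1 and set 2. The mutant lies to the right of WT for each probe set, from 7.25% for AT3G07350 to 119% for AT1G21320.

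In complete medium a minority of the members were already high in the mutant. At least 2-fold higher signals in the mutant than in WT were read for 15 of 95 members, against 2.74% of all probe sets and 38 of the 441 probe sets that failed the genotype condition. The rule reads the WT arrays of this pair, and low WT values help a probe set to be chosen, so the share is not tested. The 15 include SUFE2 (1.82 ± 0.18), AT1G23140 (1.40 ± 0.18), AT3G19970 (1.24 ± 0.20) and AT2G36970 (1.17 ± 0.23), and 11 are unnamed here, up to 3.53. Their median share of the rise left after resupply was 82.9% in the mutant and 42.9% in WT, against 68.8% in the mutant and 14.9% in WT for the other 80. The difference in complete medium was within 0.5 for 58 members. Its quartiles were -0.08 and 0.63 for the members and -0.22 and 0.13 over all probe sets. Across members the genotype difference in complete medium and that after resupply had a Pearson r of 0.51, a description of points that share 12 arrays.

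Without Pi the genotypes lay close together over the members, as they did over all probe sets. The difference lay between -0.88 and 0.88, and within 0.5 for 85 of 95, with a median of -0.09 against -0.01 over all probe sets. Its quartiles were -0.27 and 0.02 for the members and -0.14 and 0.11 over all probe sets, so the closeness is not particular to the members. Higher arrays in the mutant without overlap were read for 4 members, against 10.2% of all probe sets, and lower ones for 29, against 11.7%. The rule asks for a high WT value without Pi, which favours the lower direction, so these counts are descriptions. AT5G24600 (0.55 ± 0.19) and AT4G33550 (0.45 ± 0.13) had the highest differences among named members.

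The genotype difference after resupply, which chose the members, ran from 1.003 to 4.001 with a median of 1.57. The highest value belonged to an unnamed probe set that read 11.85, 12.01 and 12.05 in the resupplied mutant and 8.48, 7.90 and 7.52 in resupplied WT, a 16.01-fold difference of the means. Among named members AT3G43110 (2.44), AT1G08310 (2.36), AT4G23000 (2.30) and AT3G44510 (2.19) came first. The 3 members nearest the threshold had 1.003, 1.01 and 1.02, and the 3 probe sets just outside had 0.99, 0.98 and 0.98, the last of them AT3G61410. The 57 members without a single gene name spanned 1.003 to 4.001 in this difference and 1.02 to 6.90 in the mutant's starvation rise, and 23 of them were at least 2-fold lower in the resupplied mutant than in the mutant without Pi, as were 11 of the 38 named sets. No pair of named members lay within 10 protein-coding genes of each other in the RefSeq gene order.

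The other genes of the Pi pathway could hardly be followed. Of 43 genes fixed by identifier in 4 lists (Pi signalling, transport, phosphatases and lipid remodelling) 2 have a named probe set, and neither is a member. These are LPR1 and LPR2, multicopper oxidases of the root's response to low Pi, which fell on starvation in the mutant by 0.49 and 0.58 on the log2 scale (limma adjusted p = 0.0108 and 0.0129). Over all probe sets 26.3% were called down there. In WT neither was called on starvation (0.24 and 0.26). Both were higher in the mutant than in WT in complete medium (0.77 ± 0.15 and 0.91 ± 0.18), and without Pi the genotypes differed by 0.04 and 0.08. Of the 4 measured MYB factor genes of nitrate and phosphate crosstalk, 3 rose on starvation in the mutant and 1 fell. AT3G25790 rose by 1.67 ± 0.19 and AT1G68670 by 1.43 ± 0.11. AT1G68670 was also higher in the resupplied mutant than in resupplied WT, by 0.70 ± 0.11 (limma adjusted p = 9.7e-05), short of the threshold for members, and AT1G49560 was lower there (-0.86 ± 0.13, adjusted p = 0.000127). AT1G25550 and AT3G25790 were not called in that comparison (-0.11 and 0.32). LPR1 was lower in the resupplied mutant than in resupplied WT (-0.58 ± 0.15, limma adjusted p = 0.00807), and LPR2 was not called (-0.21).

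Markers of organs and array controls differed between the resupplied groups as well. Of 3 probe sets of a root hair list, the expansin genes EXPA7 (1.25 ± 0.20) and EXPA18 (1.13 ± 0.22) were higher in the resupplied mutant than in resupplied WT (limma adjusted p = 0.000224 and 0.000959), and AT4G25160 was not called (0.20 ± 0.12, adjusted p = 0.25). The list's summed signal, as log2, was 10.62 to 10.80 in the resupplied mutant and 9.50 to 9.65 in resupplied WT. Of 2 probe sets of other root genes AT2G39430 was higher (0.52 ± 0.16, limma adjusted p = 0.0288) and AT5G42200 was not called (0.15 ± 0.16, adjusted p = 0.539). Their summed signals were 8.85 to 9.10 in the mutant and 8.53 to 8.64 in WT. The place of AT4G25160 and AT5G42200 in these lists is doubtful, and both enter the sums. AT4G25160 rose on starvation by 4.34 in the mutant and 4.59 in WT. Of 5 leaf photosynthesis probe sets 3 were higher, with summed signals of 14.82 to 15.02 in the mutant and 14.55 to 14.66 in WT. Over all probe sets the difference between the resupplied groups had quartiles of -0.14 and 0.21. The share of all probe sets called in that comparison is not given here, so the marker counts are descriptions. After resupply none of the markers in these lists had a group mean under 4.397, the lowest lower quartile of an array. AT4G25160 lay almost at that value in resupplied WT, with a mean of 4.398. The dap spike-in controls averaged 8.42 to 8.57 in the resupplied mutant and 7.77 to 8.19 in resupplied WT, and 3 arrays of other groups stood apart at 4.99 to 5.25. The part of these differences in the results was not tested, and in whole seedlings fewer cells of a type and less RNA per cell cannot be told apart. Without the 3 low spike-in arrays the rule kept the same 95 members, and all 95 were again called up in the mutant's starvation response. For the ubiquitin control, the log2 signal at the 3' end minus that at the 5' end averaged 1.18 in the resupplied mutant and 1.16 in resupplied WT, and 1.01 in the mutant without Pi and 1.30 in the mutant in complete medium.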

How the data were processed

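The authors deposited log2 signals made by RMA, according to the submitters' processing notes, with 1 value for each probe set on each array. RMA corrects background, normalizes between arrays and summarises probes. The log base was inferred from the range of the values. The version of RMA is not given in the sources used here. Of 22810 probe sets, 64 controls were left out of the tests. Genes came from the platform's probe table, matched to RefSeq by gene identifier (13436 of 13513 single-gene probe sets).

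All 18 arrays entered 1 model with a mean per group (limma 3.58.1, R 4.3.3, lmFit and eBayes), two-sided, with Benjamini-Hochberg adjustment over 22746 probe sets. The fit was tested on simulated data. The members, their lists and tests were chosen with earlier results of these data known. Tests are given only for the mutant without Pi against the mutant in complete medium, which the rule does not read, and for genes that are not members. Named genes are the members with a single gene name that had the 12 largest genotype differences after resupply, the 6 next largest WT starvation responses, the 5 largest and 5 smallest mutant starvation responses, and the 4 largest and 4 smallest resupply changes in the mutant, with genes of fixed lists and those next to the threshold. Other members are named where their values are described. The number of arrays limits the precision, and RMA understates differences from dim signals: 11 members in WT and 9 in the mutant had a complete-medium mean under 4.40, the lowest lower quartile of any array. A change in total RNA per seedling is not measured. Promoter sequence was not used here. Alternatives were a replicate block, each array left out, median centring, array weights, a filter on dim probe sets, a fit to the 2 groups alone, leaving out 3 arrays of low spike-in signal, 1 probe set per gene and other thresholds.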

Additional observations from a re-analysis of the deposited data

How the results depend on the processing

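The call of all members as raised in the mutant's starvation response held under every alternative tried, at 95 of 95, or 94 of 94 with 1 probe set per named gene. Each of the 38 named sets kept its direction and call under the settings tried, with an adjusted p of at most 0.000226. The number of members was 125 at a threshold of 0.8 and 45 at 1.5 on the log2 scale, and 88 to 102 when 1 array was left out. Leaving out WT resupplied replicate 3 gave 88, of which 87 were among the 95, and leaving out WT resupplied replicate 1 gave 102, of which 94 were. With each array centred on its median the rule kept 100, the median starvation response of the members in the mutant was 2.66, and their median genotype difference without Pi was -0.025. With 1 array left out that difference was -0.13 to -0.081. The count of members lower by 2-fold or more in the resupplied mutant than in the mutant without Pi was 33 to 38, and that of members 2-fold higher in the mutant in complete medium 13 to 17; trying the alternatives on these 2 counts was chosen after seeing the data. In the labels the samples share only a replicate number. Deviations of same-numbered arrays correlated over 0.1 in 12 of 45 pairs (-0.47 to 0.23), and 8 of 18 arrays correlated better on average with their own number. Higher correlations, 0.51 to 0.60, linked the 3 arrays of low spike-in signal, which have different numbers. They are WT complete replicate 3, mutant complete replicate 2 and mutant no Pi replicate 1, and the last 2 belong to the tested comparison. With the replicate block all 95 members were again called up and the median starvation response was 2.58. With 3 arrays per group, small differences near the threshold of the rule are not settled.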
